A study of Mus musculus with 7 samples.

Results

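Translation initiation and elongation factors carry the ribosome through the making of a protein. Initiation factors (eIFs) bring the initiator tRNA and the small ribosomal subunit to the 5′ cap of an mRNA, scan to the start codon and join the large subunit, and elongation factors (eEFs) then deliver each aminoacyl-tRNA and move the ribosome along. Diphtheria toxin, the agent given in the experiment, acts on this machinery, since its A chain ADP-ribosylates eEF2 in cells that take it up and stops their protein synthesis. The 62 genes described were all rows of the count table, of 24552 symbols, whose symbol begins with Eif followed by a digit from 1 to 6, or with Eef followed by 1 or 2. Another 6 matching symbols were left out, which were Eif2s3x and Eif2s3y, the X- and Y-linked genes of the gamma subunit of eIF2, and the 4 eIF2 alpha kinase genes Eif2ak1 to Eif2ak4. The name fits most of the set, but it also takes in Eif4a3, a helicase of the exon junction complex, the eIF4E-binding proteins, which hold initiation back, and enzymes that methylate elongation factors.

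RNA was read in 7 libraries of EpCAM-positive cholangiocytes, the epithelium of the bile ducts, taken from livers of Foxp3GFPDTR mice. In this strain the Foxp3 promoter drives the diphtheria toxin receptor and GFP, so that the toxin targets regulatory T cells rather than the duct cells themselves. The DT group (n = 3) received 1 µg/kg diphtheria toxin into the peritoneum every 48 h, and the PBS group (n = 4) received saline on the same schedule. Both groups carried the transgene and ate DDC, which injures bile ducts, for 10 days, so that neither is an uninjured control. The labels used here give no background strain, age or sex.

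Library totals ran from 4805018 to 6285624 counts, and 5419 to 8361 symbols had a count above 0. The cholangiocyte markers Epcam, Krt7, Krt19 and Sox9 had counts in every library, and the whole marker list held 2.17% to 2.36% of counts in DT and 1.89% to 2.36% in PBS. B cell markers (3 genes) had no counts, Foxp3 had none, and the macrophage list, mostly Cd14, held 0.135% to 0.146% in DT and 0.0910% to 0.153% in PBS. PBS 4 had the highest counts of the macrophage genes Lyz2 (1522), Cd68 (592) and C1qa (742). It also had 571 counts of Dcn, a stellate cell gene, and 134 of Stab2, an endothelial one. Of the same stellate and endothelial list, DT 1 had 348 counts of Pecam1 and 25 of Col1a1, and PBS 2 had 130 of Col1a1. Of 8 hepatocyte markers 4 or 5 had counts in DT libraries and 4 to 6 in PBS libraries, and the list held 0.166% to 0.273% of counts in DT and 0.107% to 0.154% in PBS, with each DT library above each PBS library. Most of it was Alb, with 12411, 7443 and 9627 counts in DT 1 to 3, against 3580, 4933, 5544 and 6471 in PBS 1 to 4. Serpina1b had 412, 857 and 1231 counts in DT 1 to 3, against 0, 114, 252 and 0 in PBS 1 to 4. Ttr and Fgb overlapped between the groups. Ttr had 978, 1099 and 1630 counts in DT 1 to 3, against 1985, 447, 33 and 1384 in PBS 1 to 4. Fgb had 1721, 189 and 578 in DT 1 to 3, against 528, 47, 10 and 566 in PBS 1 to 4. Apoa1 had 186 counts in PBS 1, 41 in PBS 4 and 0 in each other library. Cyp2e1 was at 0 in each DT library, and Cps1 was at 0 throughout. Summed over the Y-linked genes Ddx3y, Eif2s3y, Kdm5d and Uty, reads were present in DT 1, DT 2, DT 3 and PBS 1, and in no other library. The ribosomal RNA row Rn45s took 3.45% to 4.64% of counts in DT and 2.63% to 3.52% in PBS. The part of any of these in the differences described here was not tested. A fit with Y-linked reads as a covariate was run, but PBS 1 is the only PBS library with such reads. The log2 fold changes of that fit therefore set the DT libraries against PBS 1 alone. They cannot tell the presence of Y-linked reads from any other trait of PBS 1.

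For orientation, the 100 bases around the annotated starts of 4 members are shown, namely the 3 most-read elongation factor genes and Eif3f, which holds both patterns searched for. This set was chosen after the values and matches were seen. A terminal oligopyrimidine tract, a run of C and T at the very start of an mRNA, ties its translation to mTORC1, and elongation factor mRNAs are known for it. The sequences are RefSeq promoters of GRCm38.p6, a later build than the mm9 of the counts, matched by symbol, which succeeded for 47 of 62 members. Each runs from 85 bases before the start through 15 bases of the transcript. Capitals mark runs of at least 6 C or T that reach within 5 bases of the start, and the TATA box letters TATAAA.
Eef1a1, chr9:78481710-78481809, minus strand: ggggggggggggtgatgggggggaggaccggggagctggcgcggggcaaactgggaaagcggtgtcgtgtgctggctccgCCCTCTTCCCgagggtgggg
Eef1b2, chr1:63176746-63176845, plus strand: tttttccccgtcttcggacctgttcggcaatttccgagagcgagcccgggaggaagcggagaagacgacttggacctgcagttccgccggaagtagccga
Eef2, chr10:81176546-81176645, plus strand: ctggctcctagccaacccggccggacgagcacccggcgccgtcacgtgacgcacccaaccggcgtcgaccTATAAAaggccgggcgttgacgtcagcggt
Eif3f, chr7:108934330-108934429, plus strand: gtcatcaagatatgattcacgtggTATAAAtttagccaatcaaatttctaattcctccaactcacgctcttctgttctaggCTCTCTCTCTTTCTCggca

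The run spans 10 bases in Eef1a1 and 15 in Eif3f, and in both it begins before the annotated start. A marked run is only a match of letters near that start. Whether it is a terminal oligopyrimidine tract of the mRNA was not tested. Runs were searched on the gene's own strand and TATAAA on both strands within the same 100 bases, and no marked run touched a TATAAA. A run was found in 16.4% of the 61 promoter entries of members, against 20.2% of 32851 entries of all genes, and TATAAA in 3.28%, against 5.38% of all entries. Neither pattern was more frequent among members than among all entries, and a missing match says only that the letters are not in that window at that annotated start.

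Reads were found for 56 of the 62 members. Eef1a2, the muscle and neuron form of eEF1A, the eIF3 subunit genes Eif3j1 and Eif3j2, the oocyte cap-binding gene Eif4e1b, the methyltransferase gene Eef1akmt1 and the read-through symbol Eef1akmt4-ece2 had 0 counts in all 7 libraries. By counting error alone a count of 0 allows up to 3 counts, or 0.498 to 0.618 CPM (counts relative to library size, with sizes scaled by TMM, edgeR's trimmed mean method). The true limit is higher, because counts of 0 were common among well-read genes. Where a gene averaged 100 to 500 counts in the remaining libraries of the group, 24 of 102 member values were 0 (23.5%), against 33.0% over all genes. At 500 to 1000 counts 6 of 73 member values were 0, against 8.15% over all genes. At 1000 to 2000 counts 0 of 56 member values were 0, against 1.17% over all genes, and above 2000 counts 0 of 86, against 0.0614%. Eif3j1 and Eif3j2 are near-identical copies, as are Eif1a and Eif1ax, and Eef1a1 has many processed copies in the genome. How reads that match several places were counted is not given, so the counts of these genes are uncertain.

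**Figure D1:**
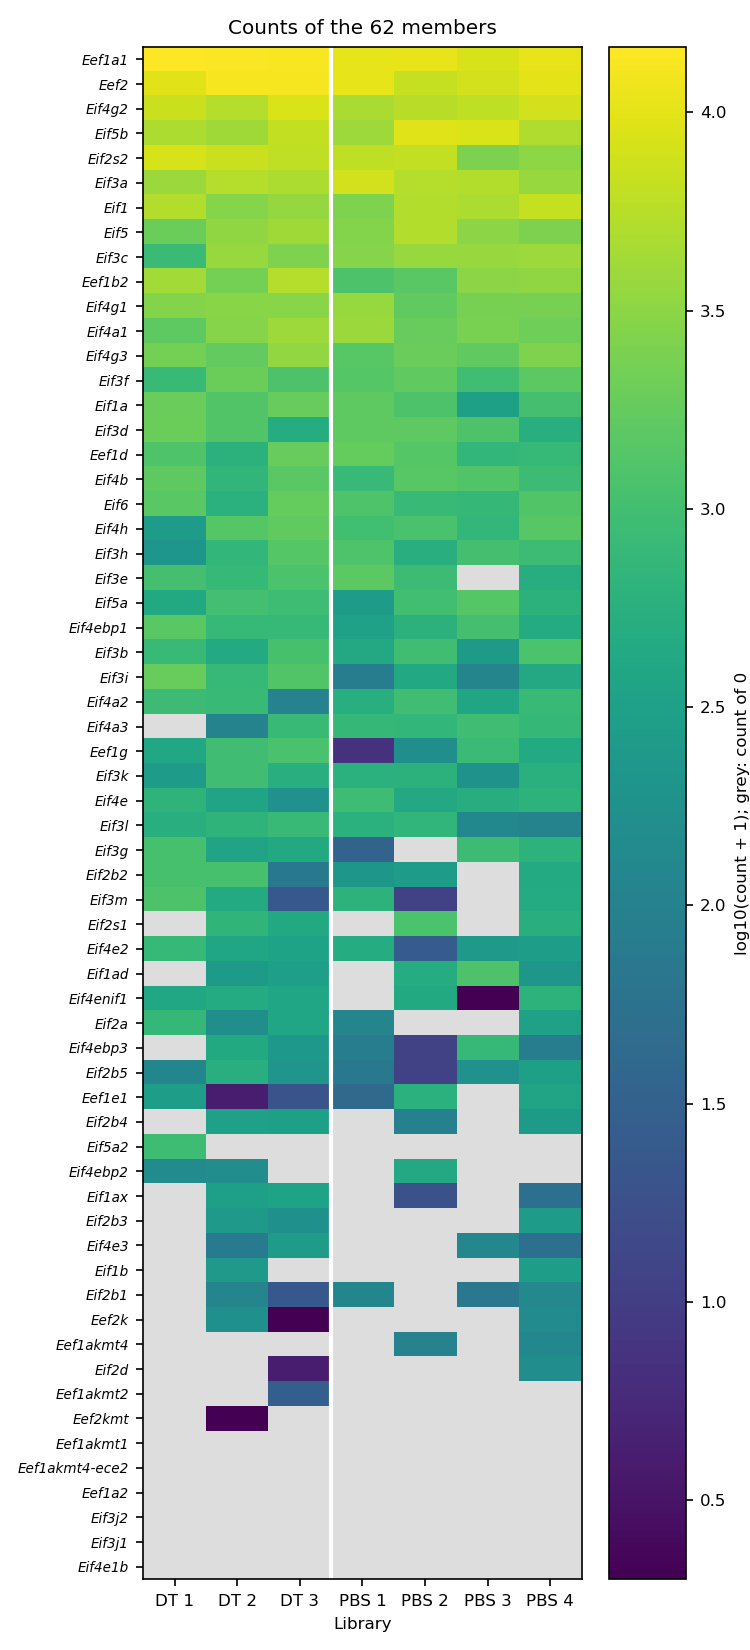
Counts of the 62 members (rows, ordered by summed count) in the DT and PBS libraries (columns), as log10(count + 1), with a count of 0 in grey. Eef1a1 and Eef2 head the order, 32 members had counts in every library, and 6 had none in any.

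The filter on low counts kept 49 members for the test, of which 17 still had a count of 0 in at least 1 library. Among the 7 with counts that it removed, Eif5a2, a second eIF5A gene, had 911 counts in DT 1 and 0 in each of the other 6 libraries. Eef2k, the kinase that inhibits eEF2, had 0, 171 and 1 counts in DT 1 to 3 and 0, 0, 0 and 144 in PBS 1 to 4. Eif1b had 246 counts in DT 2, against 281 in PBS 4, and no others. Eif2d, Eef1akmt2, Eef1akmt4 and Eef2kmt had 154 counts or fewer in any library.

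As a whole the translation factors took between 1.55% and 1.68% of counts in every library, and the groups overlapped. Their summed counts were 1.63%, 1.59% and 1.65% of the library in DT 1 to 3 and 1.64%, 1.68%, 1.604% and 1.55% in PBS 1 to 4. The means were 1.62% ± 0.0312 in DT and 1.62% ± 0.0547 in PBS (SD, n = 3 and 4). Behind this sum, the mean summed shares of the 13 Eef symbols and of the 49 Eif symbols differed in opposite directions. Such sums weigh the well-read genes most, and each of the 2 sets held single members with positive and with negative log2 fold changes. Eef symbols held 0.539%, 0.535% and 0.555% of counts in DT 1 to 3, against 0.489%, 0.407%, 0.436% and 0.477% in PBS 1 to 4. Every DT library lay above every PBS library, and the ratio of the means was 1.20. On TMM-scaled library sizes the groups overlapped, with 0.509% in DT 1 below 0.518% in PBS 4, and the means were 0.568% ± 0.0538 in DT and 0.459% ± 0.0453 in PBS. Without Eef1a1 the Eef sum was 0.305% ± 0.0319 in DT and 0.254% ± 0.0365 in PBS. Eif symbols held 1.079% ± 0.0240 of counts in DT and 1.17% ± 0.0809 in PBS, with overlap between the groups. On TMM-scaled library sizes the Eif means lay closer, at 1.127% ± 0.0888 in DT and 1.180% ± 0.0808 in PBS. These sums carry no test, since the division was seen in the same data. A rise in the share of a gene cannot be told from a fall in the rest of the RNA, and in sorted cells fewer cells of a type and less RNA per cell cannot be told apart.

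**Figure D2:**
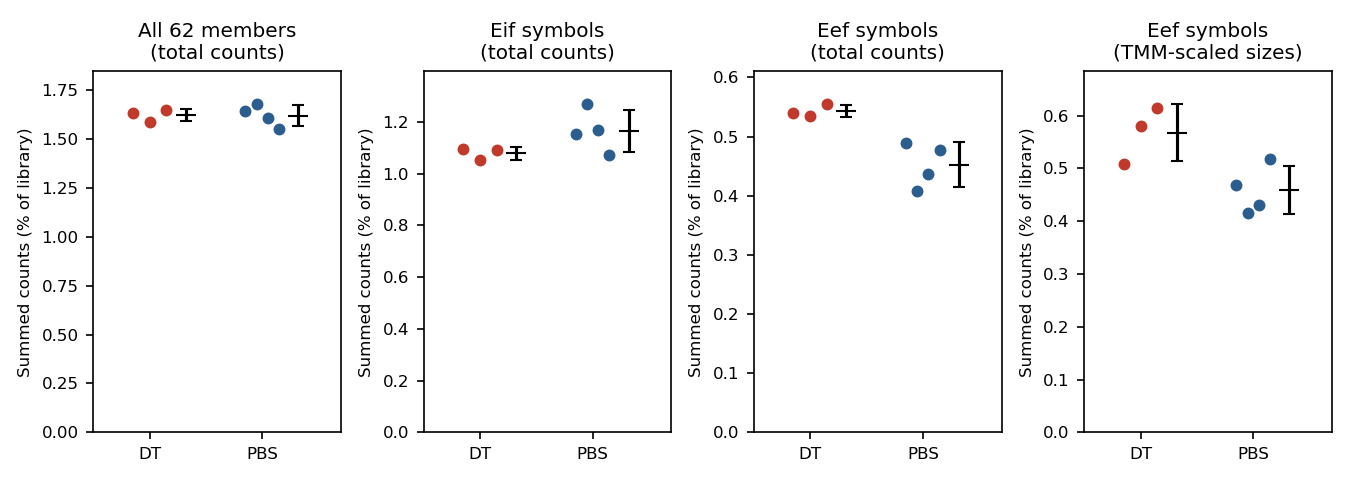
Summed counts of all 62 members, of Eif symbols and of Eef symbols as a percent of each library (points, DT left and PBS right, with mean ± SD). The fourth panel gives Eef symbols on TMM-scaled library sizes, where DT 1 (0.509%) falls below PBS 4 (0.518%).

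No single member passed the test between DT and PBS. By the edgeR quasi-likelihood test with Benjamini-Hochberg adjustment over all 7688 tested genes, 0 of 49 members passed as higher and 0 as lower, and each had an adjusted p of 1.00. Over all tested genes 0 passed as higher (0%) and 3 as lower (0.039%), so that the members' count stood where the background would put it. DESeq2, which called 1.37% of all genes, and limma-voom, which called 0.273%, also called 0 members. At an unadjusted p below 0.05 there were 2 members, or 4.08% of those tested, against 3.5% of all genes. They were Eif3i, higher in DT like 1.39% of all genes, and Eif5b, lower in DT like 2.11%. Of the 49, 26 had positive and 23 negative log2 fold changes (53.1% positive, against 49.3% of all genes). Their median log2 fold change was 0.05, against -0.02 for all tested genes. Every DT library lay above every PBS library for 2 members, Eef1a1 and Eif3i (4.08%, against 3.73% of all genes), and below for 0 (2.58% of all genes).

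**Figure D3:**
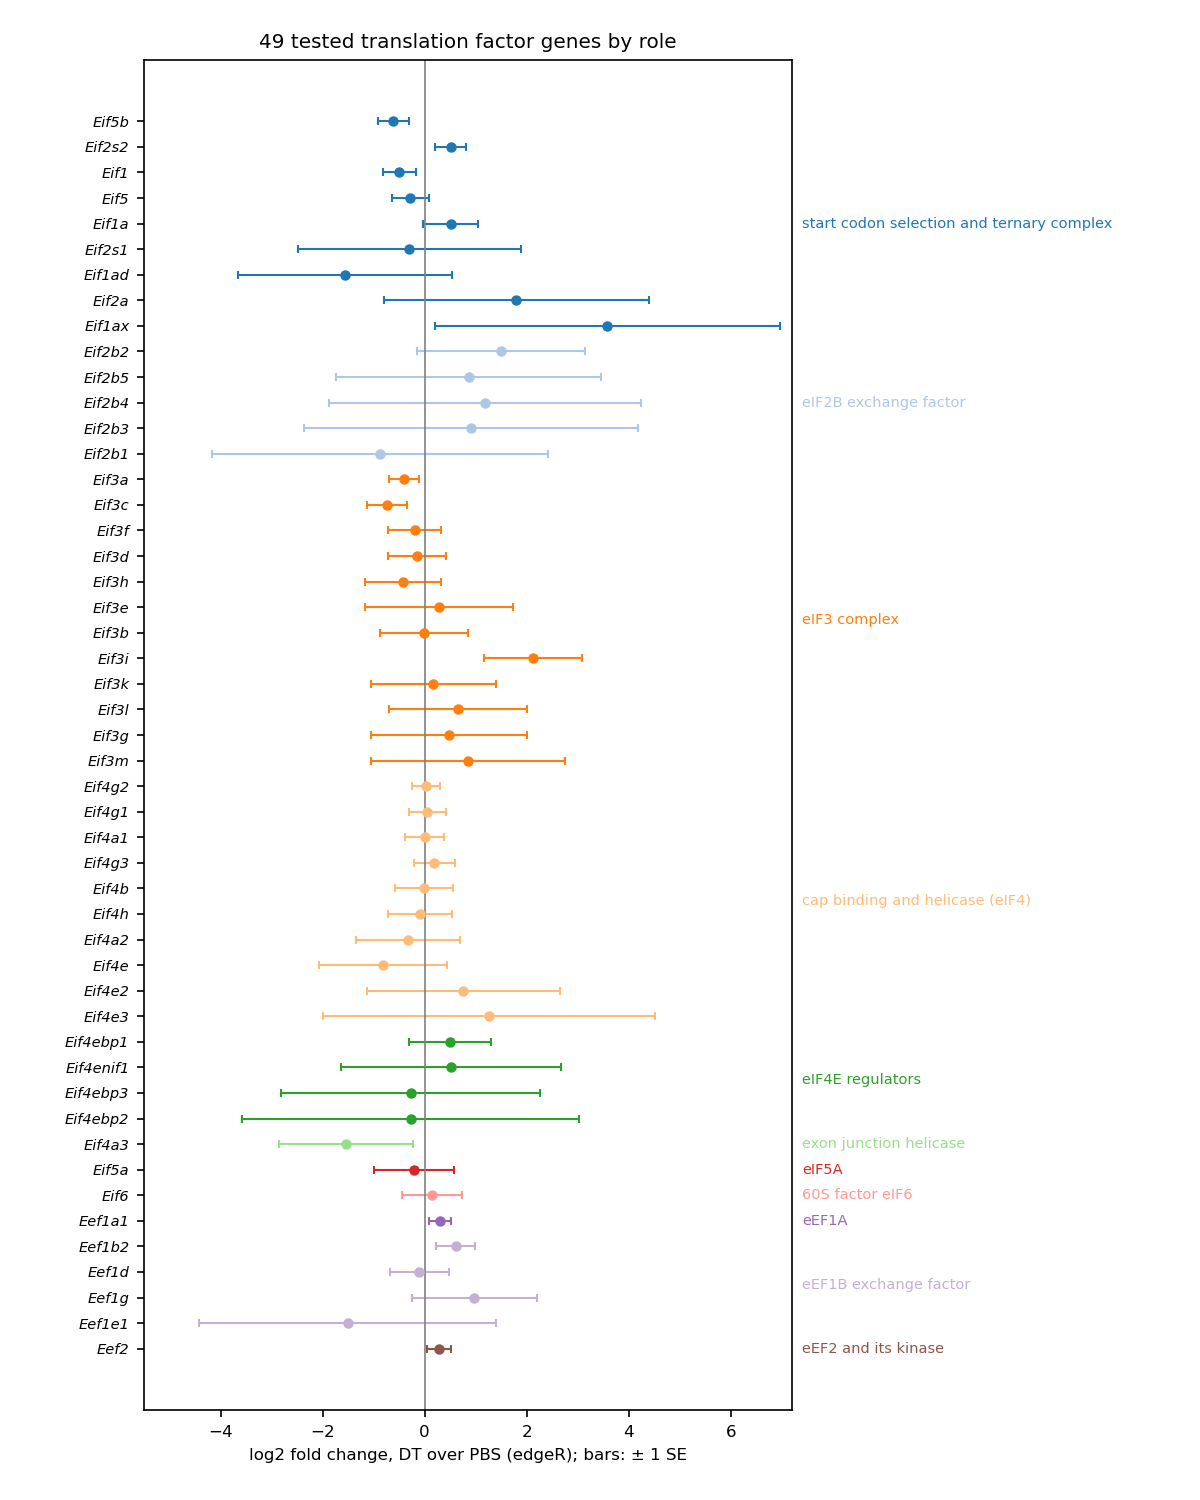
Log2 fold change of DT over PBS with ± 1 SE (horizontal axis) for the 49 tested members, grouped by role and ordered by level within a role. Well-read members lie within 1 of 0 with short bars, and the widest bars belong to members with counts of 0 in several libraries.

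The precision differed widely between members. For the 14 members whose log2 CPM averaged at least 8, SEs were 0.22 to 0.51 and log2 fold changes -0.74 to 0.61. Their intervals of 2 SE to either side reached from -1.51 to 1.37 at the widest. For the other 35 tested members SEs were 0.54 to 3.38. The median coefficient of variation between libraries of the 14 was 23.9% in DT and 31.3% in PBS, beside 29.9% in DT and 31.8% in PBS for all 733 genes at that level. Of the 14, 7 had positive values, against 52.7% of the 733. Every DT library was above every PBS library for 1 of the 14, against 7.37% of the 733, and below for 0, against 5.59%. An unadjusted p below 0.05 was found for 1 of the 14, against 12.8% of the 733. The 14, and the 4 further members with the smallest p, are described here by role.

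Of single members, the elongation factor genes Eef1a1 and Eef2 had the most reads. Eef1a1 encodes eEF1A, the GTPase that brings aminoacyl-tRNA to the ribosome, and ranked 24th of all tested genes by level. It was at 2427, 2643 and 2362 CPM in DT 1 to 3, against 2068, 2109, 1727 and 2125 CPM in PBS 1 to 4. All DT libraries were above all PBS libraries, and PBS 3 was the lowest of the 7. Its log2 fold change was 0.30 (SE 0.22, adjusted p = 1.00 by edgeR), a fold of 1.23. The separation depended on the scaling, since on unscaled totals DT 3 was at 2131 CPM and the highest PBS library at 2156 CPM. Beside it, the hepatocyte marker share was also higher in each DT library, and its part in the result was not tested.

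Eef2 encodes the GTPase that moves the ribosome by a codon and is the target of the toxin. Its mRNA was at 1647, 2399 and 2306 CPM in DT 1 to 3, against 2032, 1306, 1632 and 2028 CPM in PBS 1 to 4. DT 2 and DT 3 were the highest libraries, while DT 1 lay among the PBS values. This gave a log2 fold change of 0.28 (SE 0.24, adjusted p = 1.00 by edgeR), with an interval of 2 SE from -0.20 to 0.75, and it was 0.06 with Y-linked reads as a covariate. By limma-voom it was 0.39 with an adjusted p of 0.0939, the smallest of any member in any alternative. In the edgeR fits with 1 library left out it ran from 0.16 without PBS 2 to 0.41 without DT 1. Counts of Eef2 mRNA say nothing of the ADP-ribosylation of the protein.

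The eEF1B complex recharges eEF1A with GTP. Eef1b2, its exchange subunit eEF1B alpha, was at 697, 432 and 949 CPM in DT 1 to 3, against 233, 299.9, 632 and 655 CPM in PBS 1 to 4. The groups overlapped through DT 2, and the log2 fold change was 0.61 (SE 0.38, adjusted p = 1.00 by edgeR), or 0.30 without DT 3 and 1.57 with the Y-linked covariate. Eef1g, the gamma subunit, averaged 148 ± 71.7 CPM in DT and 75.2 ± 76.5 CPM in PBS. Eef1d, the delta subunit, averaged 215 ± 106 CPM in DT and 232 ± 97.3 CPM in PBS. Eef1e1, a partner of the aminoacyl-tRNA synthetase complex despite its symbol, ran from 0.563 to 47.3 CPM in DT and from 0 to 115 CPM in PBS. Of the 4 genes of this role 2 had positive and 2 negative log2 fold changes.

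Among factors of the start codon and of initiator tRNA, 4 of 9 tested members had positive and 5 negative values, with a median log2 fold change of -0.28. Eif5b encodes the GTPase that joins the ribosomal subunits. It was at 799.5, 762 and 1131 CPM in DT 1 to 3, against 771, 1892, 1837 and 996 CPM in PBS 1 to 4. PBS 2 and PBS 3 stood well above the other 5 libraries, which overlapped. The log2 fold change was -0.61 (SE 0.30, unadjusted p = 0.0478 and adjusted p = 1.00 by edgeR), and 0.22 with Y-linked reads as a covariate. PBS 1, the PBS library with Y-linked reads, was the lowest of the PBS libraries for this gene and for Eif1.

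Eif1, which guards the choice of start codon, was at 880.1, 549 and 629 CPM in DT 1 to 3, against 503, 1046, 1003 and 1329.9 CPM in PBS 1 to 4. Its log2 fold change was -0.50 (SE 0.32, adjusted p = 1.00 by edgeR), and 0.45 with the Y-linked covariate. Eif5, which makes eIF2 hydrolyse its GTP, was at 334, 621 and 731 CPM in DT 1 to 3, against 536, 1046, 651 and 493 CPM in PBS 1 to 4. DT 1 was the lowest and PBS 2 the highest library. It had a log2 fold change of -0.28 (SE 0.36), and 0.07 with the Y-linked covariate.

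Eif2s2, the beta subunit of eIF2, which carries the initiator tRNA, was at 1434, 1363 and 1095 CPM in DT 1 to 3, against 1219, 1275, 520.3 and 627 CPM in PBS 1 to 4. PBS 3 and PBS 4 were low, and PBS 1 and PBS 2 lay within the DT range. Its log2 fold change was 0.51 (SE 0.30, adjusted p = 1.00 by edgeR), 0.31 without PBS 3 and 0.09 with the Y-linked covariate. Eif2s1, the alpha subunit whose phosphorylation slows initiation under stress, had 0 counts in DT 1, PBS 1 and PBS 3 and from 439 to 1170 in the other libraries.

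Eif1a and its X-linked near-copy Eif1ax encode eIF1A, which helps the ribosome scan. Eif1a was at 323, 241 and 322 CPM in DT 1 to 3, against 315, 241, 65.3 and 209 CPM in PBS 1 to 4, so that PBS 3 alone lay apart. Its log2 fold change was 0.51 (SE 0.54), 0.20 without PBS 3 and -0.09 with the Y-linked covariate. Eif1ax had 0, 313 and 343 counts in DT 1 to 3, against 0, 17, 0 and 50 in PBS 1 to 4. DT 2 and DT 3 were the high libraries, and DT 1 had none (log2 fold change 3.58, SE 3.38, adjusted p = 1.00 by edgeR). Eif2a, an alternative carrier of initiator tRNA, was at 73.9 ± 46.6 CPM in DT and 21.3 ± 29.7 CPM in PBS.

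The eIF2B genes encode the complex that reloads eIF2 with GTP, and all 5 were thinly read. Eif2b2 to Eif2b5 had log2 fold changes of 0.86 or more and Eif2b1 one of -0.88, with SEs of 1.65 to 3.29. Their summed level was 257 ± 153 CPM in DT and 122 ± 107 CPM in PBS, and it was 281 CPM in PBS 4, above DT 1 and DT 3.

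**Figure D4:**
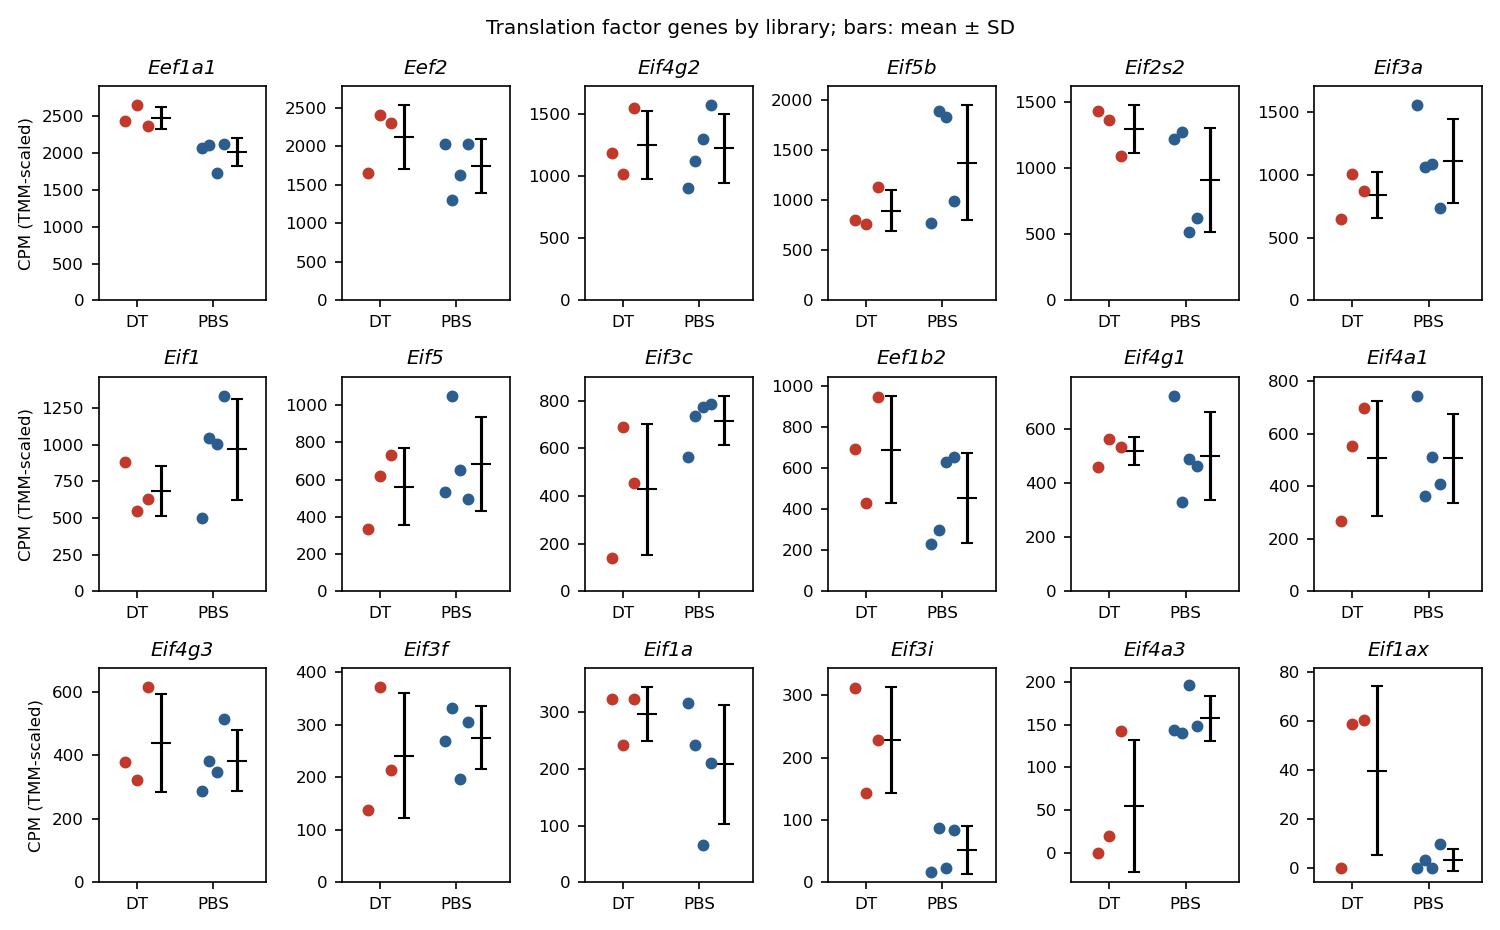
CPM on TMM-scaled library sizes of the 18 members described one by one (points, DT left and PBS right, with mean ± SD on linear axes). Eef1a1 and Eif3i are the panels in which every DT point lies above every PBS point.

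The eIF3 complex, a platform of many subunits that holds the small ribosomal subunit and the mRNA together, was divided within itself. Of its 14 listed genes 12 were tested, 6 with positive and 6 with negative log2 fold changes and a median of 0.08. Eif3i, a WD-repeat subunit, gave the smallest p of all members. It was at 312, 144 and 228 CPM in DT 1 to 3, against 15.9, 87.3, 23.1 and 83.9 CPM in PBS 1 to 4. The groups did not overlap under TMM, RLE or upper quartile scaling or on unscaled totals. The log2 fold change was 2.12 (SE 0.96, unadjusted p = 0.0329 and adjusted p = 1.00 by edgeR), 1.80 to 2.48 when 1 library was left out, and 3.84 with the Y-linked covariate. Its highest library was DT 1, which had the fewest detected genes of the 7.

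Eif3c, a scaffold subunit, went the other way, at 142, 688 and 455 CPM in DT 1 to 3, against 565, 735, 775 and 785 CPM in PBS 1 to 4. DT 1 and DT 3 lay below all PBS libraries, and DT 2 lay among them. That made a log2 fold change of -0.74 (SE 0.39, unadjusted p = 0.0632 and adjusted p = 1.00 by edgeR). Its value was -0.34 without DT 1 and -1.26 without DT 2, so that these libraries set its size. Eif3a, the largest scaffold subunit, was at 647, 1006 and 868 CPM in DT 1 to 3, against 1552, 1066, 1087 and 737 CPM in PBS 1 to 4. This came to a log2 fold change of -0.40 (SE 0.30, adjusted p = 1.00 by edgeR), and all DT libraries lay below all PBS libraries but PBS 4. It was -0.21 without PBS 1, -0.18 by limma-voom and -0.89 with the Y-linked covariate.

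Eif3f, an MPN-domain subunit, was at 138, 371 and 214 CPM in DT 1 to 3, against 268, 333, 196 and 306 CPM in PBS 1 to 4, with full overlap. It gave a log2 fold change of -0.19 (SE 0.51), and 0.06 without DT 1. The remaining 8 subunit genes, Eif3b, Eif3d, Eif3e, Eif3g, Eif3h, Eif3k, Eif3l and Eif3m, overlapped between the groups. Their log2 fold changes ran from -0.42 (Eif3h) to 0.85 (Eif3m). Summed over the complex, the level was 2847 ± 423 CPM in DT and 3173 ± 401 CPM in PBS.

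Well-read genes of the cap-binding complex eIF4F, and the related Eif4g2, had small log2 fold changes. These ran from -0.0012 (Eif4a1) to 0.19 (Eif4g3), with SEs of 0.27 to 0.41. Eif4g1 encodes the scaffold that links the cap to the ribosome, Eif4g3 its paralogue, and Eif4g2 a relative that lacks the binding site for eIF4E. Eif4g2 was at 1181, 1018 and 1546 CPM in DT 1 to 3, against 905, 1117, 1295 and 1565 CPM in PBS 1 to 4 (log2 fold change 0.03, SE 0.27). Eif4g1 was at 459.8, 562 and 534 CPM in DT 1 to 3, against 720.3, 329, 489 and 463 CPM in PBS 1 to 4 (0.05, SE 0.37). The DT values of both genes lay inside the PBS range.

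Eif4g3 was at 378, 322 and 613 CPM in DT 1 to 3, against 286, 383, 348 and 514 CPM in PBS 1 to 4 (log2 fold change 0.19, SE 0.41, and -0.14 without DT 3). Eif4a1, the helicase that unwinds mRNA ahead of the ribosome, averaged 506 ± 220 CPM in DT and 506 ± 168 CPM in PBS. It was at 267, 552 and 699 CPM in DT 1 to 3, against 741, 364, 510.4 and 409 CPM in PBS 1 to 4. The difference of these means was far smaller than the spread within either group, although an interval of 2 SE still ran from -0.77 to 0.76. Signs of these small values changed between settings, for Eif4g1 to -0.47 with the Y-linked covariate and for Eif4a1 to 0.29 by limma-voom. With the Y-linked covariate Eif4g2 was at 0.46, Eif4g3 at 0.61 and Eif4a1 at -0.55.

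Eif4e, the cap-binding protein itself, was at 69.6 ± 39.2 CPM in DT and 122 ± 40.2 CPM in PBS (log2 fold change -0.81, SE 1.26). Its inhibitor gene Eif4ebp1, a target of mTORC1, was at 177 ± 59.2 CPM in DT and 125 ± 67.0 CPM in PBS (0.50, SE 0.80). Both pairs of groups overlapped, and neither gene passed. Eif4b and Eif4h, cofactors of the helicase, had log2 fold changes of -0.02 and -0.09. Of the other eIF4E regulators, Eif4ebp2 had counts in DT 1, DT 2 and PBS 2 alone.

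Eif4a3 belongs to the exon junction complex, which marks spliced mRNA. It had 0, 107 and 813 counts in DT 1 to 3, against 745, 712, 957 and 754 in PBS 1 to 4. On the CPM scale DT 3, at 143, exceeded PBS 2, at 140.4, while under RLE or upper quartile scaling and on unscaled totals all DT libraries lay below all PBS libraries. Its log2 fold change was -1.53 (SE 1.31, adjusted p = 1.00 by edgeR), -0.97 without DT 1, the library with no reads of it, and -3.97 without DT 3. The remaining DT libraries had 107 and 813 counts. At averages of 100 to 500 counts 33.0% of values over all genes were 0, and 23.5% of member values. At 500 to 1000 counts 8.15% of values over all genes were.

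Eif5a, the factor with a hypusine residue that eases difficult peptide bonds, was at 142 ± 61.9 CPM in DT and 164 ± 102 CPM in PBS (log2 fold change -0.21, SE 0.79). Eif6, which keeps the large ribosomal subunit from joining early, was at 226 ± 105 CPM in DT and 204 ± 54.4 CPM in PBS (0.14, SE 0.59). Over the 31 tested members outside the 18 described singly, 16 had positive and 15 negative values, from -1.56 (Eif1ad) to 1.80 (Eif2a), with unadjusted edgeR p from 0.368 to 0.992.

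Around these factors, in 9 lists of translation-related genes, 116 genes were listed, 100 were tested, and 0 passed as higher and 0 as lower by edgeR, with 1 at an unadjusted p below 0.05 (3.5% of all tested genes were). The list medians ran from -0.34 (hypusine synthesis, 5 tested) to 0.37 (eIF2 alpha kinases and phosphatases, 11 tested). Ppp1r15a encodes the stress-induced subunit that directs a phosphatase to eIF2 alpha. It had 1738, 1222 and 878 counts in DT 1 to 3, against 2437, 1840, 1747 and 1797 in PBS 1 to 4, with every DT library below every PBS library, as for 2.58% of all genes (log2 fold change -0.79, SE 0.47, adjusted p = 1.00 by edgeR). The constitutive partner Ppp1r15b had a log2 fold change of -0.61 (SE 0.48) with overlapping groups.

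Targets of the integrated stress response, which eIF2 alpha phosphorylation sets off, were split 7 to 7 among 14 tested genes. The transcription factor gene Atf3 was at 629 ± 292 CPM in DT and 344 ± 159 CPM in PBS (log2 fold change 0.87, SE 0.40, unadjusted p = 0.0372 and adjusted p = 1.00 by edgeR). Ddit4, an inhibitor of mTORC1, was at 569 ± 134 CPM in DT and 331 ± 171 CPM in PBS (0.78, SE 0.41). Chac1, which degrades glutathione, had 4224, 1644 and 1254 counts in DT 1 to 3, against 9, 804, 29 and 966 in PBS 1 to 4. Every DT library was above every PBS library, as for 3.73% of all genes, but its log2 fold change of 2.20 had an SE of 1.57. In the list of poly(A)-binding proteins, Pabpc1, which joins the mRNA tail to eIF4G, was at 1011 ± 199 CPM in DT and 912 ± 363 CPM in PBS (0.15, SE 0.31). The 18 tested mTORC1 and S6 kinase genes had 9 positive and 9 negative values, and the 22 aminoacyl-tRNA synthetase genes 10 positive and 12 negative.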

How the data were processed

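Total RNA of 7 libraries was read at transcript 3′ ends (QuantSeq FWD, per the labels' protocols). The authors deposited raw counts per gene symbol. The submitters' processing notes name genome build mm9. Aligner, counter and molecular identifiers were not stated in what was used here. Sample titles gave the groups. Whether each library is a separate animal is not stated, so p-values reflect library spread alone, part of which may be technical.

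Counts were scaled by TMM and filtered with filterByExpr (7688 genes, 97.5% of counts), and the edgeR 4.0.16 quasi-likelihood test set DT against PBS (R 4.3.3, robust, two-sided) with Benjamini-Hochberg adjustment over all tested genes and a threshold of 0.05. Each SE is the absolute log2 fold change over the square root of F. Alternatives were RLE and upper quartile factors, 2 filters, the replicate number as a block, DESeq2 1.42.0, limma 3.58.1 (voom with sample weights), Y-linked reads as a covariate, and leaving out each library. Members averaging at least 8 in log2 CPM, and the 4 others with the smallest p, were described singly. The members, roles and lists were chosen with earlier results of these data known. Floors cover counting error only, while SEs and intervals include the spread between libraries. Figures used matplotlib 3.10.9.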

Additional observations from a re-analysis of the deposited data

Results flagged for a closer look

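Of 21 values tested for a PBS library far from the other 3, 2 stood apart, where about 1.05 are expected by chance. In Eef1a1, PBS 3 was low at 1727 CPM, and the distance to its closest neighbour made up 0.856 of the spread from lowest to highest PBS value. In Eif4a3, PBS 3 was high at 197 CPM, with a distance of 0.851 on the same measure. Without PBS 3 the log2 fold change of Eef1a1 was 0.23, against 0.30.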

How the results depend on the processing

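No member passed in any of the 15 alternatives. Over all genes, calls higher and lower were 0 and 3 in the edgeR test, 1 and 7 with no filter on low counts, and 6 and 6 with the replicate block. They were 27 and 78 by DESeq2, and 15 and 6 by limma-voom. More genes were also called higher with the Y-linked covariate. That count is not given, since PBS 1 alone is the comparison there. With genes at an average log2 CPM of 8 or more alone, where fewer were tested, 5 were lower. With any 1 library left out, 0 to 1 genes were higher and 1 to 4 lower. Same-numbered libraries correlated at -0.0600 to 0.0251 in their deviations from the group means, so the numbers were not taken as pairs, and of the DT libraries DT 3 alone matched its own number best. Of 265 values of the 18 named members 247 kept their sign and 18 turned. Those that turned with the Y-linked covariate, where PBS 1 alone is the comparison, were Eif1 (0.45), Eif1a (-0.094), Eif4g1 (-0.47), Eif5 (0.069) and Eif5b (0.22). In that fit the median of well-read genes moved to 0.14, against 0.03. Eif4a1 turned by limma-voom (0.29), and Eif4g1 (-0.0035) and Eif4g2 (-0.0085) with the filter at 8. Leaving out 1 library gave ranges of -0.65 to 0.064 for Eif3f, -0.31 to 0.28 for Eif4a1, -0.11 to 0.27 for Eif4g1, -0.16 to 0.17 for Eif4g2, -0.14 to 0.37 for Eif4g3 and -0.52 to 0.0037 for Eif5. The difference in the Eef share, 0.0909 percentage points, was 0.0509 without Eef1a1 and 0.0759 to 0.103 when 1 library was left out. The causes were not tested. Positive and negative values among members, 26 and 23 by edgeR, were 32 and 17 by limma-voom and 31 and 18 with the Y-linked covariate. Below about 1000 counts, values of 0 limit the depth.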
